A study of Mus musculus with 12 samples.

Results

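A set of 10 genes of the endoplasmic reticulum (ER) stress response was followed in mouse liver, and each of them was expressed at a lower level in mice given Pien Tze Huang (PZH) than in mice given the same injections of carbon tetrachloride without PZH. The genes were Hspa5, Hsp90b1, Calr, Pdia4, Pdia6, Sdf2l1, Creld2, Dnajb9, Herpud1 and Xbp1. They are chaperones, cofactors and degradation genes that the unfolded protein response raises, with its transcription factor Xbp1. The rule that defines them lists names and uses no measured value, but the genes were chosen with earlier results of these data known. All 10 were among the 14188 genes of the protein-coding expression table, where they were represented by 15 of its 29883 transcripts. The level of a gene was the sum of the FPKM values of its listed transcripts, a measure of read coverage corrected for transcript length and for the number of mapped fragments in the library.

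All 12 mice were injected with carbon tetrachloride (CCl4), a solvent that hepatocytes convert into a toxic radical, as a model of hepatic fibrosis. Male C57BL mice, 6 weeks old at the start, received intraperitoneal injections of CCl4 in corn oil 2 times a week at 10 µl per g of body weight. The 6 mice of the PZH group were also given 0.25 mg of PZH per g by mouth each day, and the 6 mice of the control group were given double distilled water instead. PZH is a traditional Chinese herbal medicine used for liver disease. The livers were taken in week 8, with 1 library of ribosome-depleted total RNA from each mouse. The sample labels give the strain as C57BL/8, while the study's methods give C57BL/6J. No library from a mouse without CCl4 was analysed here, so a value of the control group is the level in injured liver and not in healthy liver.

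The ER is where secreted and membrane proteins are folded, and a hepatocyte, which secretes most plasma proteins, carries a heavy folding load. When unfolded proteins accumulate in the ER, 3 sensor proteins in its membrane, Atf6, Ire1 (gene Ern1) and Perk (gene Eif2ak3), start the unfolded protein response. Cleaved Atf6 and the transcription factor encoded by spliced Xbp1 mRNA raise the transcription of chaperones and of the machinery that removes misfolded proteins, while Perk lowers protein synthesis and raises the translation of Atf4.

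A sequence element, the ER stress response element (ERSE), was shared by several of the promoters. It is the element through which Atf6 and Xbp1 are known to act, and it consists of CCAAT and CCACG with 9 bases between them. The exact letters were found on either strand in the promoters of 5 of the 10 genes, in a window from 250 bases before to 50 bases after the RefSeq gene start. Over all windows of this length, 39 of 32851 (0.119%) held a match. The elements are shown with the flanking bases, 30 in all, because they are what these promoters have in common. Each is printed 5′ to 3′ in the direction that ends in CCACG, and the capitals mark CCAAT and CCACG. The sequences are from RefSeq, build GRCm38.p6. The positions, in the same order, were chr2:34772020-34772049 (plus strand), chr10:86705528-86705557 (plus strand), chr10:86705632-86705661 (minus strand), chr8:84847070-84847099 (plus strand), chr12:17266486-17266515 (plus strand) and chr15:88819514-88819543 (minus strand).
Hspa5: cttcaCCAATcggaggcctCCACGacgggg
Hsp90b1, first: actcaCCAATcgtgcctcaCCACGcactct
Hsp90b1, second: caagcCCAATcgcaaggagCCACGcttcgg
Calr: atgggCCAATgagggtcgaCCACGcgttgt
Pdia6: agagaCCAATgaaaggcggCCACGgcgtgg
Creld2: gtggaCCAATtgaggctcgCCACGagaagc

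The Hspa5 stretch lay within the first exon of the longer annotated transcript, Hspa5-201, and upstream of the more abundant Hspa5-202. The other 5 stretches overlapped no annotated exon. Hsp90b1 was the gene with 2 elements, 1 on each strand.

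A related element, ERSE-II, consists of ATTGG and CCACG with 1 base between them and was added to the search after the values were known. It was present in the Herpud1 promoter, at chr8:94386368-94386397 (plus strand), and in 12 of the 32851 windows (0.0365%). The 30 bases around it are shown with ATTGG and CCACG in capitals, because Herpud1 had no ERSE.
Herpud1: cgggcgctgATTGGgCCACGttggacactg

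The short part CCACG alone was present in 9 of the 10 windows, Xbp1 being the exception, but also in 32.8% of all windows. In the Dnajb9 window the 250 bases before the gene start lay wholly within annotated exons, those of Dnajb9-201 and Mir5627-201. That window did not reach upstream of the start of Dnajb9-201, which held 99.5% of the Dnajb9 level in PZH mice. The letters TGACGTGG, the core of the unfolded protein response element, which contains CCACG on its other strand, were found in none of the 10 windows and in 0.676% of all windows. The core of the amino acid response element, TGATGNAAN, through which Atf4 acts, was found in the Herpud1 window and in 3.95% of all windows. A match of letters is a description of these windows and does not show that a factor was bound.

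The 250 bases before the gene start of Creld2 are shown because this gene had the largest difference between the groups. They lie at chr15:88819396-88819645 (plus strand of GRCm38.p6), overlap no annotated exon and are printed in the direction of the gene. The capitals mark the same ERSE, which reads CGTGG and ATTGG on this strand.
Creld2 upstream: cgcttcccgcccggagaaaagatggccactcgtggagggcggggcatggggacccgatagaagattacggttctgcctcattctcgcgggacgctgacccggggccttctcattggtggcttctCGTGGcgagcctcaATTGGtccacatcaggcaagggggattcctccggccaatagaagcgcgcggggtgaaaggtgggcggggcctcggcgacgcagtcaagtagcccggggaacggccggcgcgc

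**Figure D1:**
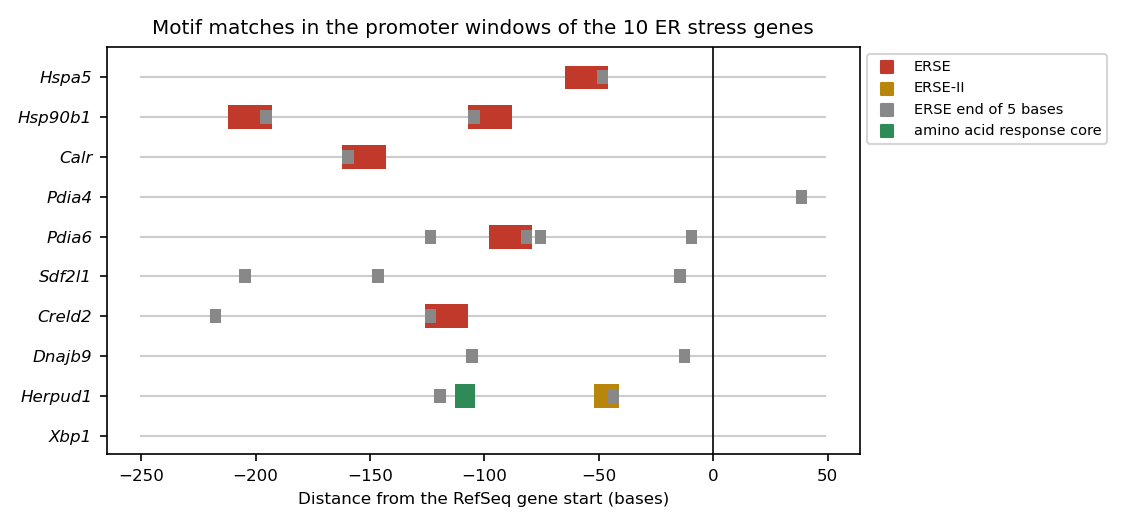
Position of each motif match in the promoter windows of the 10 genes, as the distance in bases from the RefSeq gene start. Grey lines are the windows from 250 bases before to 50 bases after the start, and coloured blocks are the matches on either strand. The ERSE lay before the start in the windows of Hspa5, Hsp90b1, Calr, Pdia6 and Creld2, and the Xbp1 window held no match.

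At the level of genes, all 10 ER stress genes were significantly lower in the PZH group (limma on log2(FPKM + 1), adjusted p under 0.05 over all genes tested). The background was large, since 32.1% of all genes were lower and 12.7% were higher by the same rule. The study called transcripts by a fold change over 2 and an unadjusted p under 0.05, and named no test. With these cut-offs on the gene level and the limma p, 4 of the 10 were lower, against 2.5% of all genes. They were Hspa5, Sdf2l1, Creld2 and Dnajb9. The PZH and control values did not overlap for 8 of the 10 genes, against 17.9% of all genes that were lower without overlap. The median difference of the 10 genes was -0.93 on the log2 scale and that of all genes was -0.11. For genes with a mean of 1 FPKM or more it was -0.17. In control level each of the 10 was above 96.2% of all genes or more. The shares of all genes include low genes, whose changes this scale understates, and shares for genes of a similar level were not computed. These samples are bulk tissue, so fewer cells of a type and less RNA per cell cannot be told apart.

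**Figure D2:**
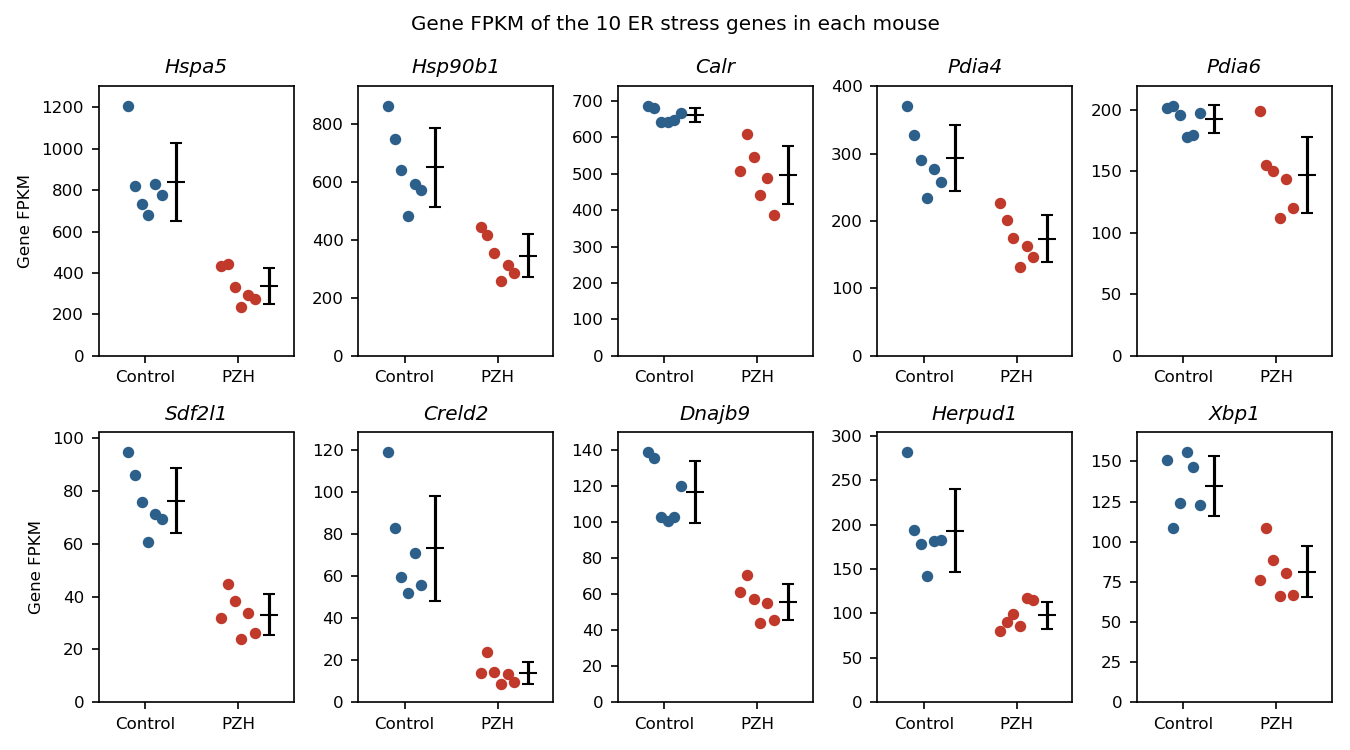
Gene FPKM of the 10 genes in each mouse, with the control group in blue and the PZH group in red. Points are mice, and the black bar beside them is the mean ± SD (n = 6). The groups overlapped for Pdia6, through PZH mouse 1, and for Xbp1, through PZH mouse 2 and control mouse 2.

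The dependence on the scaling of the libraries was as follows. Dividing each library by the median of its transcript ratios to the average library moved the median difference of all genes from -0.11 to -0.0050. After this scaling 19.7% of all genes were lower and 19.3% were higher, and 8 of the 10 ER stress genes were still called lower. Calr (adjusted p = 0.0517, limma) and Pdia6 (adjusted p = 0.197, limma) were no longer called. The groups then did not overlap for 5 genes, which were Creld2, Dnajb9, Herpud1, Hspa5 and Sdf2l1. After subtraction of the median of all genes, the differences of the 10 genes ranged from -2.21 (Creld2) to -0.30 (Pdia6) with the deposited values and from -2.14 to -0.22 with the scaled ones.

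**Figure D3:**
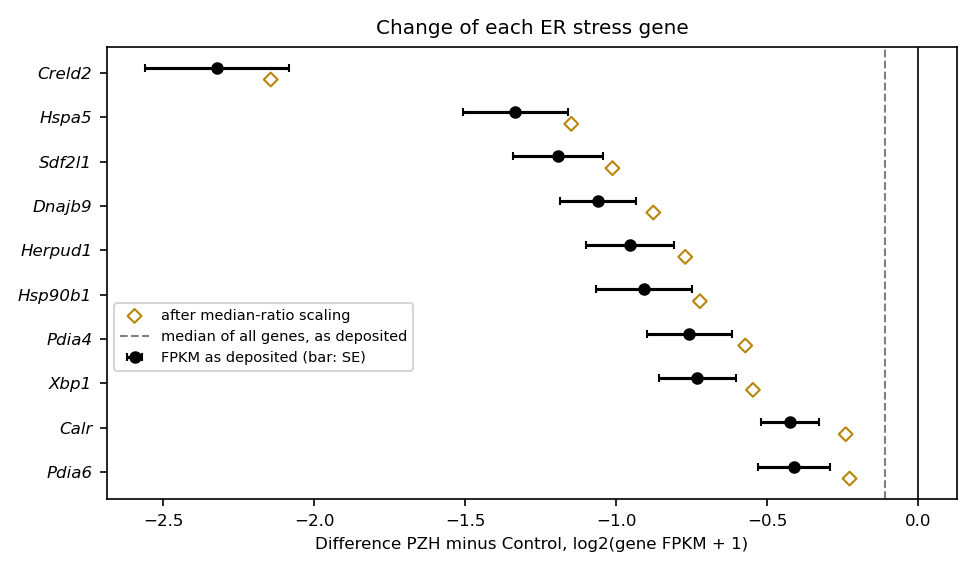
Difference between the PZH and control groups in log2(gene FPKM + 1) for each of the 10 genes. Black points are the deposited values with the standard error (SE), open diamonds the same difference after median-ratio scaling, and the dashed line is the median of all genes (-0.11). Creld2 had the lowest value (-2.32) and Pdia6 the highest (-0.41).

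Hspa5 (ENSMUSG00000026864, chr2:34771970-34777547, plus strand) encodes BiP, the main Hsp70 chaperone of the ER, which also binds the sensors and holds them inactive. Its level was 682 FPKM at the lowest, 797 at the median and 1206 at the highest in the control group, and 234, 315 and 443 FPKM in the PZH group. Every PZH mouse was below every control mouse. The mean was 336 ± 86.4 FPKM in the PZH group and 841 ± 187 FPKM in the control group (SD, n = 6), so that the PZH level was 40.0% of the control level. The difference was -1.33 on the log2 scale (SE 0.17, adjusted p = 8.64e-05, limma).

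Hsp90b1 (ENSMUSG00000020048, chr10:86690209-86705509, minus strand) encodes Grp94, the Hsp90 chaperone of the ER lumen. Control values were between 482 and 862 FPKM, with a median of 618, and PZH values between 259 and 446 FPKM, with a median of 334. The groups did not overlap. The PZH mean was 53.3% of the control mean, a difference of -0.91 (SE 0.16, adjusted p = 0.00059, limma).

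Calr (ENSMUSG00000003814, chr8:84841850-84846934, minus strand) encodes calreticulin, a calcium-binding lectin chaperone that retains glycoproteins until they are folded. The control mice were close together, between 641 and 685 FPKM with a median of 656. The PZH mice were spread more widely, between 385 and 608 FPKM with a median of 498, and all were below the control mice. The mean was 496 ± 78.3 FPKM against 660 ± 19.7 FPKM, and the difference was -0.43 (SE 0.095, adjusted p = 0.0029, limma).

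The rank of these abundant chaperones changed between the groups. Hspa5 was above Calr in each of the 6 control mice, and Calr was above Hspa5 in each of the 6 PZH mice. FPKM values are per length of transcript, so that levels of different genes can be compared. In the control group the order of the means was Hspa5 (841 FPKM), Calr (660), Hsp90b1 (650), Pdia4 (293), Herpud1 (193), Pdia6 (192), Xbp1 (135), Dnajb9 (117), Sdf2l1 (76.2) and Creld2 (73.3). The ranges over mice overlapped between each gene and the next in this order except between Hsp90b1 and Pdia4, between Pdia6 and Xbp1 and between Dnajb9 and Sdf2l1. In the PZH group Calr was the highest, at 496 FPKM, and Creld2 the lowest, at 14.0 FPKM.

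Pdia4 (ENSMUSG00000025823, chr6:47796141-47813430, minus strand) and Pdia6 (ENSMUSG00000020571, chr12:17266545-17284770, plus strand) are protein disulfide isomerases, which form and rearrange disulfide bonds, and Pdia6 is also known to attenuate Ire1. Pdia4 was between 235 and 371 FPKM in the control group (median 284) and between 132 and 226 FPKM in the PZH group (median 169), without overlap. Its difference was -0.76 (SE 0.14, adjusted p = 0.000847, limma).

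Pdia6 was between 178 and 203 FPKM in the control group, with a median of 196, and between 112 and 199 FPKM in the PZH group, with a median of 147. PZH mouse 1, at 199 FPKM, lay within the control range, and the other 5 PZH mice lay below it. The difference was -0.41 (SE 0.12, adjusted p = 0.0127, limma). Over all 924 labellings of the mice, the exact permutation p, two-sided, was 0.011 for Pdia6, and 0.0022, the smallest value it can give, for each of the 8 genes without overlap. The disulfide isomerases thus included the gene with the smallest difference of the 10.

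A further 3 genes encode cofactors of the chaperones. Creld2 (ENSMUSG00000023272, chr15:88819646-88826683, plus strand) encodes a cysteine-rich protein of the ER that can also be secreted, and it is known as a marker of ER stress. It was between 51.8 and 119 FPKM in the control group (median 65.3) and between 8.57 and 23.8 FPKM in the PZH group (median 13.8). The lowest control mouse was thus above the highest PZH mouse. The mean was 14.0 ± 5.37 FPKM against 73.3 ± 24.9 FPKM, which was 19.1% of the control level. The difference of -2.32 (SE 0.24, adjusted p = 2.33e-05, limma) was the largest of the 10.

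Sdf2l1 (ENSMUSG00000022769, chr16:17130138-17132383, minus strand) encodes an ER protein that forms a complex with DnaJ cochaperones. It was between 60.7 and 94.5 FPKM in the control group (median 73.5) and between 23.8 and 44.9 FPKM in the PZH group (median 32.7), without overlap. The difference was -1.19 (SE 0.15, adjusted p = 6.72e-05, limma).

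Dnajb9 (ENSMUSG00000014905, chr12:44205559-44210326, minus strand) encodes ERdj4, a DnaJ cochaperone of BiP that represses Ire1 and is a known target of spliced Xbp1. It was between 101 and 139 FPKM in the control group (median 111) and between 44.2 and 70.5 FPKM in the PZH group (median 56.2). All PZH mice were below all control mice, and the difference was -1.06 (SE 0.12, adjusted p = 4.74e-05, limma).

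Herpud1 (ENSMUSG00000031770, chr8:94386438-94395377, plus strand) encodes an ER membrane protein that assembles the complex for ER-associated degradation, in which misfolded proteins are moved to the cytosol and destroyed. Its level was between 142 and 281 FPKM in the control group (median 182) and between 80.1 and 117 FPKM in the PZH group (median 95.1), without overlap. The difference was -0.96 (SE 0.15, adjusted p = 0.000235, limma). Control mouse 1 held the highest value, and without this mouse the difference was -0.84.

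Xbp1 (ENSMUSG00000020484, chr11:5520659-5525893, plus strand) encodes the transcription factor whose mRNA is spliced by Ire1. It was between 109 and 156 FPKM in the control group (median 135) and between 66.4 and 109 FPKM in the PZH group (median 78.4). PZH mouse 2 and control mouse 2 were at nearly the same level, and the other 5 mice of each group did not overlap. The difference was -0.73 (SE 0.13, adjusted p = 0.000578, limma), with an exact permutation p of 0.0043.

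The splicing that activates Xbp1 could not be read from this table. Ire1 removes a short stretch from the cytosolic Xbp1 mRNA, whereas the shortest annotated intron in any of the 3 listed Xbp1 transcripts was 300 bases long. The coding sequence of the main transcript, Xbp1-201, was 801 bases, that of the unspliced form. Xbp1-201 held 91.3 ± 2.54% of the Xbp1 FPKM in PZH mice and 90.8 ± 1.11% in control mice (SD, n = 6), a difference of 0.44 percentage points (exact permutation p = 0.71, two-sided). For the shares of Xbp1-203 and Xbp1-204 the exact permutation p was 0.15 and 0.68. A change in these shares was not detected, while the Xbp1 level as a whole was lower.

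At the level of transcripts, all 15 were lower in the PZH group (limma, adjusted over 29883 transcripts), against 14.0% of all transcripts. By the 2-fold rule 6 of the 15 were lower, against 1.99%, and 12 did not overlap between the groups, against 8.58%. Hspa5-202 held 96.2% of the Hspa5 level in PZH mice and 95.8% in control mice. Both Hspa5 transcripts fell, Hspa5-201 by 1.40 and Hspa5-202 by 1.33 on the log2 scale. Herpud1-205 held 60.0% of Herpud1 in PZH mice and 62.1% in control mice, and Dnajb9-202 was under 1 FPKM in every mouse. The weakest call was that of Xbp1-204 (adjusted p = 0.0481, limma), which was lost when any of 10 of the 12 mice was left out. That of Pdia6-201 (adjusted p = 0.033, limma) was lost for 7 of the 12.

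Whether the genes fell to the same extent was examined by the difference of each from Hspa5 within a mouse, a comparison chosen after the values were seen. Creld2 fell more than Hspa5, by 0.99 on the log2 scale (SE 0.13, adjusted p = 0.004, exact permutation test, Benjamini-Hochberg over 9 genes). Hsp90b1 fell less, with a difference of 0.43, as did Pdia4 with 0.58, Calr with 0.91 and Pdia6 with 0.92 (adjusted exact p = 0.004 each). The same held for Xbp1 with 0.60 (adjusted exact p = 0.0097) and Dnajb9 with 0.27 (adjusted exact p = 0.033). The difference did not pass the test for Herpud1, at 0.38 ± 0.21 (SE, adjusted exact p = 0.11), or for Sdf2l1, at 0.14 ± 0.12 (SE, adjusted exact p = 0.25). A difference between 2 genes within a mouse does not depend on the scaling of the library beyond the pseudocount.

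The mice of a group also differed among themselves, and the same mouse was often the highest or the lowest. Control mouse 1 was the highest of its group for 8 of the 10 genes and control mouse 4 the lowest for 8. In the PZH group mouse 4 was the lowest for 8 genes and mouse 2 the highest for 6. The summed level of the 10 genes ran from 2729 to 4110 FPKM over the control mice and from 1406 to 2166 FPKM over the PZH mice.

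The correlation of each gene with Hspa5 over the 6 mice of a group was computed on the log2 scale, in each group apart, which gave 18 relations. In the PZH group 8 of 9 correlations were positive, and Pearson's r ran from -0.42 for Herpud1 to 0.99 for Hsp90b1, with a median of 0.86. For Hsp90b1 r was 0.99 (exact permutation p = 0.0028, adjusted p = 0.025) and Spearman's rho was 0.94 (exact permutation p = 0.017, adjusted p = 0.06). For Herpud1 r was -0.42 (exact permutation p = 0.39, adjusted p = 0.41) and rho was -0.26 (exact permutation p = 0.66, adjusted p = 0.70). In that group 5 of the 9 passed an adjusted p under 0.05 for r, of which Pdia6 and Creld2 rounded to 0.05. For rho the lowest adjusted exact permutation p of the group rounded to 0.05, for Dnajb9, and the others were 0.06 or more.

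In the control group all 9 correlations were positive, from 0.23 for Xbp1 to 0.97 for Herpud1. For Herpud1 r was 0.97 (exact permutation p = 0.0056, adjusted p = 0.031) and rho was 0.83 (exact permutation p = 0.058, adjusted p = 0.11). For Creld2 r was 0.94 (exact permutation p = 0.0069, adjusted p = 0.031) and rho was 0.89 (exact permutation p = 0.033, adjusted p = 0.086). These were the 2 that passed for r. Without the 2 mice whose Hspa5 level was farthest from the median, r in the control group ran from -0.33 to 0.74, with 0.74 for Creld2 and 0.64 for Herpud1. After median-ratio scaling 7 of the 9 passed in the control group and 4 of the 9 in the PZH group, and r without the 2 mice ran from -0.18 to 0.90 in the control group. In the PZH group r ran from 0.47 to 0.99 without the 2 mice (deposited values), and that of Herpud1 turned from -0.42 to 0.47.

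**Figure D4:**
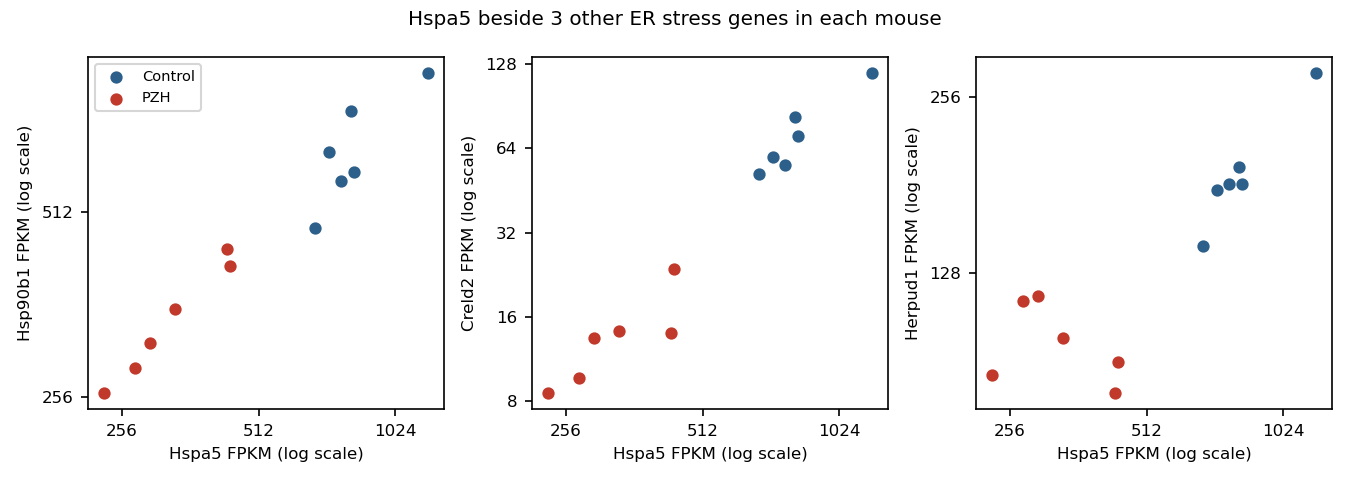
Hsp90b1, Creld2 and Herpud1 against Hspa5 in each mouse, in gene FPKM on log axes of base 2, with the control group in blue and the PZH group in red. Hsp90b1 followed Hspa5 closely over the PZH mice (r = 0.99), while r for Herpud1 was -0.42 over the 6 PZH mice and 0.47 without 2 of them, and control mouse 1 had the highest value for each of the 4 genes.

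A further 5 lists of genes of the pathway were counted with the same fit, in which 32.1% of all genes were lower and 12.7% higher, or 19.7% and 19.3% after median-ratio scaling. The sensors came first. Of the 6 genes for the sensors and the proteases that cleave Atf6, 4 were lower, 0 were higher and 2 did not pass the test, beside 32.1% of all genes lower. Eif2ak3, the gene for Perk, was at 5.85 ± 1.02 FPKM in the PZH group and 12.7 ± 1.87 FPKM in the control group (SD, n = 6), a difference of -1.01 (adjusted p = 3.66e-05, limma). Ern1, the gene for Ire1, was at 17.96 ± 4.90 FPKM against 29.9 ± 1.20 FPKM, a difference of -0.75 (adjusted p = 0.00124, limma). Atf6b differed by -0.71 (adjusted p = 7.79e-05, limma) and Atf6 by -0.45 (adjusted p = 0.000539, limma). The 4 sensor genes did not overlap between the groups, beside 17.9% of all genes that were lower without overlap. The proteases Mbtps1 (log2 difference 0.0047) and Mbtps2 (-0.21) did not pass.

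The Perk and Atf4 arm was the list whose members were all lower, 10 of 10, beside 32.1% of all genes lower. Its median difference was -1.16. These genes raise amino acid supply and redox capacity and, under prolonged stress, promote cell death. Trib3, a pseudokinase, was at 4.15 ± 0.913 FPKM in the PZH group and 20.8 ± 5.64 FPKM in the control group, a difference of -2.06 (adjusted p = 9.42e-06, limma). Atf3, a stress-induced transcription factor, differed by -2.01 (adjusted p = 2.01e-05, limma). Ddit3, which encodes Chop, was at 7.34 ± 1.83 FPKM against 32.0 ± 7.34 FPKM, a difference of -1.98 (adjusted p = 1.28e-05, limma). Atf4 itself differed by -1.01 (adjusted p = 0.00021, limma), and its groups did not overlap. In this list 6 of the 10 genes were lower without overlap, beside 17.9% of all genes. After median-ratio scaling all 10 were still called lower, beside 19.7% of all genes.

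Of 26 other ER folding factors, 12 were lower, 1 was higher and 13 did not pass, with a median difference of -0.31, beside 32.1% of all genes lower and 12.7% higher. Manf, a secreted stress-induced factor that binds BiP, was at 53.8 ± 12.7 FPKM against 141 ± 29.7 FPKM, a difference of -1.39 (adjusted p = 0.000111, limma). Hyou1, the nucleotide exchange factor of BiP, differed by -1.09 (adjusted p = 8.96e-05, limma), and the cochaperone Dnajb11 by -0.83 (adjusted p = 0.000198, limma). Dnajc3, an inhibitor of Perk, differed by -0.57 (adjusted p = 0.00196, limma).

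For 3 further folding enzymes that were always named the values were as follows. Pdia3, the isomerase that works with calreticulin, differed by -0.43 (adjusted p = 0.00511, limma), a call that was lost after median-ratio scaling (adjusted p = 0.108, limma). Canx, which encodes calnexin, was at 181 ± 26.1 FPKM against 210 ± 10.01 FPKM, and its difference of -0.22 did not pass (adjusted p = 0.0562, limma). P4hb, another disulfide isomerase, was at 535 ± 43.9 FPKM against 573 ± 66.0 FPKM, and its difference of -0.09 did not pass (adjusted p = 0.386, limma) and became 0.09 after median-ratio scaling. The 1 gene that was higher was Prdx4, an ER peroxiredoxin named here after its value was seen, with a difference of 0.46 (adjusted p = 0.00309, limma). After median-ratio scaling 8 of the 26 were lower and 4 were higher, beside 19.7% and 19.3% of all genes.

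Of 18 genes of ER-associated degradation, 10 were lower, 0 were higher and 8 did not pass, beside 32.1% of all genes lower. Syvn1, the ubiquitin ligase Hrd1, was at 17.5 ± 3.34 FPKM against 48.2 ± 15.5 FPKM, a difference of -1.38 (adjusted p = 0.000102, limma). Derl3, a part of the channel for misfolded proteins, was at 1.77 ± 0.952 FPKM against 6.05 ± 2.11 FPKM, also a difference of -1.38 (adjusted p = 0.000903, limma). Herpud2 differed by -0.55 (adjusted p = 0.000828, limma). Sel1l, the partner of Hrd1, differed by -0.52 (adjusted p = 0.0302, limma), and leaving out control mouse 1, 3 or 6 or PZH mouse 1, 4 or 6 ended this call, with an adjusted p of up to 0.0643 (limma). It was also lost without variance moderation (adjusted p = 0.0548, limma) and after median-ratio scaling, where the difference was -0.34 (adjusted p = 0.137, limma). After median-ratio scaling 5 of the 18 were lower and 2 were higher, beside 19.7% and 19.3% of all genes.

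Of 21 genes of the translocon, the signal peptidase and the COPII coat, through which proteins enter and leave the ER, 10 were lower, 1 was higher and 10 did not pass, beside 32.1% of all genes lower and 12.7% higher. Srprb, a subunit of the receptor of the signal recognition particle, differed by -1.12 (adjusted p = 1.69e-05, limma). The COPII coat genes Sec23b and Sec24d differed by -0.89 (adjusted p = 0.000455, limma) and -0.81 (adjusted p = 7.52e-05, limma). The gene that was higher was Sar1b, the GTPase that starts COPII assembly, named after its value was seen, with a difference of 0.75 (adjusted p = 0.00102, limma). After median-ratio scaling 6 of the 21 were lower and 2 were higher, again beside 19.7% and 19.3%.

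**Figure D5:**
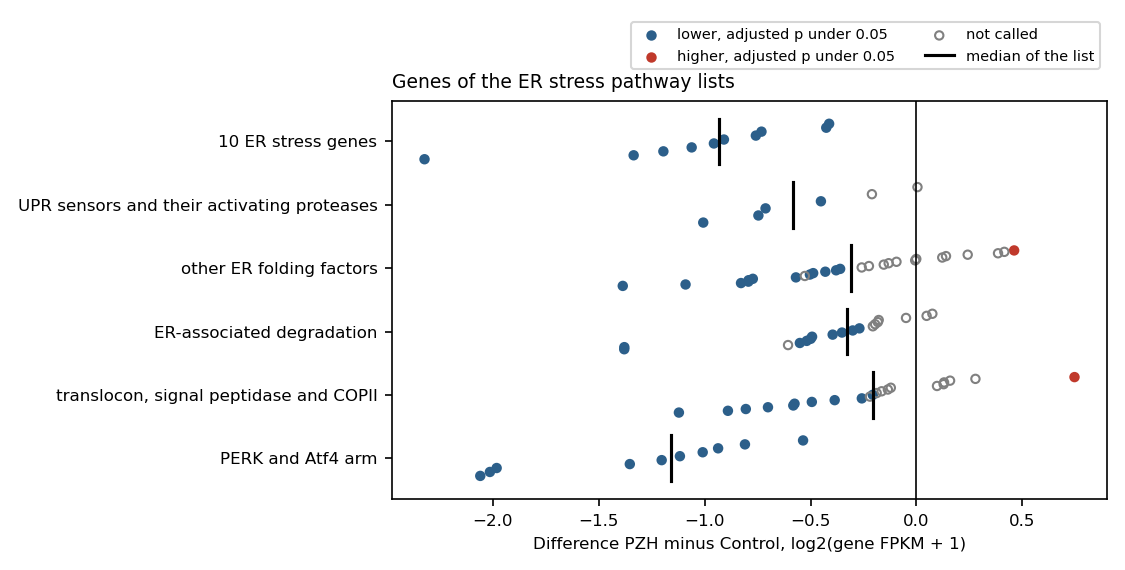
Difference between the PZH and control groups in log2(gene FPKM + 1) for each gene of the 10 ER stress genes and of 5 further lists. Filled blue points were lower and filled red points higher at an adjusted p under 0.05, open points were not called, and black lines are the medians. The median was -1.16 for the Perk and Atf4 arm and -0.21 for the translocon list.

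Genes outside the 10 that carried an ERSE were also counted. Of the 37 genes with a match, 19 were in the expression table, 14 of them other than the 10. Of these 14, 6 were lower and 1, Acacb, was higher, beside 32.1% of all genes lower and 12.7% higher. The median difference of the 14 was -0.32. The 6 that were lower were Acnat2, Alg12, Derl3, Dnajc3, Syvn1 and Zfp57, and Canx was among those that did not pass. Derl3, Dnajc3, Syvn1 and Canx were already counted in the pathway lists above, as was Dnajb11 below. Of the lower genes only Acnat2, Alg12 and Zfp57 were outside those lists, so the count is not one of genes beyond the pathway. Of the 7 further genes in the table with an ERSE-II, 2 were lower, Dnajb11 and Rcl1, a share near the 32.1% of all genes. Conversely, Sdf2l1, Dnajb9, Pdia4 and Xbp1 were lower without an exact ERSE or ERSE-II in the window searched. For Dnajb9 the bases before the start of its main transcript, Dnajb9-201, were outside that window and were not searched.

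Markers of the cell types that liver tissue can hold were measured beside these genes. The hepatocyte markers were abundant in all mice, with a summed level of 30235 to 42979 FPKM in the control group and 48118 to 63730 FPKM in the PZH group. Of 8 hepatocyte markers, 4 were higher in the PZH group and 0 were lower, beside 12.7% of all genes higher and 32.1% lower. Those 4 were Alb, Ttr, Cps1 and Cyp2e1, the P450 that activates CCl4, whose difference was 2.24 (adjusted p = 1.74e-05, limma). The other 4, which did not pass, were Apoa1 (0.28), Apob (0.13), Serpina1a (0.075) and Trf (-0.22). The defining plasma cell markers Jchain and Mzb1 were at most 3.16 and 0.581 FPKM in any mouse. None of the 5 listed plasma cell markers passed the test (limma), and their summed level was 56.8 to 69.5 FPKM in the PZH group and 58.6 to 76.6 FPKM in the control group, nearly all of it from Sdc1.

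The other lists are given by count, beside 32.1% of all genes lower and 12.7% higher. The markers named as lower or higher were picked by their call after the values were seen, and the others did not pass the test. Of 6 macrophage markers 1 was lower (Cd68) and 2 were higher (Csf1r and Clec4f), with summed levels of 327 to 514 FPKM in the PZH group and 301 to 419 FPKM in the control group. Of 7 stellate cell and myofibroblast markers 2 were lower, Acta2 and Des, and 1 was higher, Col3a1 (summed 104 to 177 against 83.6 to 148 FPKM). The rest were Col1a1 (log2 difference 0.18), Col1a2 (0.40), Lrat (0.18) and Pdgfrb (-0.32). Of 5 endothelial markers 2 were lower, Pecam1 and Lyve1 (38.7 to 58.4 against 53.3 to 61.4 FPKM). The rest were Stab2 (log2 difference 0.061), Kdr (0.18) and Cdh5 (-0.38). Of 5 cholangiocyte markers 1, Sox9, was lower (66.9 to 133 against 96.9 to 161 FPKM). The rest were Krt19 (log2 difference -0.043), Krt7 (-0.039), Epcam (0.30) and Spp1 (-0.39). Of 5 neutrophil markers 1, Csf3r, was lower (7.44 to 123 against 12.9 to 53.4 FPKM). The rest were S100a8 (log2 difference -0.31), S100a9 (-0.26), Ly6g (0.12) and Mpo (0.24). S100a8 reached 76.0 FPKM in the PZH group, where its median was 7.04 FPKM. Of 6 B and T cell markers 0 passed (limma, summed 2.03 to 3.60 against 1.95 to 3.63 FPKM). All 4 markers of cycling cells, Mki67, Top2a, Ccnb1 and Cdk1, were higher in the PZH group, at 5.32 to 13.1 FPKM in sum against 1.43 to 2.96 FPKM. After median-ratio scaling the counts lower and higher were 0 and 6 for hepatocyte, 0 and 2 for plasma cell, 0 and 3 for macrophage, 2 and 2 for stellate cell, 1 and 1 for endothelial, 1 and 1 for cholangiocyte, 1 and 0 for neutrophil, 0 and 1 for B and T cell and 0 and 4 for cycling cell markers. After that scaling 19.7% of all genes were lower and 19.3% higher. Jchain and Mzb1 were the 2 plasma cell markers then called higher, and Cd68 and Pecam1 were no longer called. The part of these shifts in the levels of the ER stress genes was not tested.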

How the data were processed

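Liver RNA of 6 PZH and 6 control mice was sequenced as strand-specific, ribosome-depleted libraries. The authors trimmed reads with Trimmomatic, mapped them to GRCm38 with HISAT2, quantified Ensembl transcripts with StringTie and deposited FPKM values per transcript and mouse on a linear scale. FPKM divides by the mapped total, so a rise of a few abundant transcripts lowers all others. Whole reads could not be recovered from the values (1.22 to 1.61% of low values were whole multiples of 1 read), so no count model was used. For the same reason the number of fragments per mouse could not be read from the values. The 10 genes were at 8.57 FPKM or more in every mouse.

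Transcripts were named with GENCODE M21 (29876 of 29883 matched) and summed per gene. limma 3.58.1 (R 4.3.3, default moderation) was fitted to log2(FPKM + 1) over all genes or transcripts, with Benjamini-Hochberg adjustment and a threshold of 0.05; fold changes are on that scale, which understates changes of low genes. Single values used exact permutation tests over 924 labellings or 720 orders, two-sided. On simulated data with 200 of 14188 genes changed by 1 on the log2 scale, 93% were recovered and 9 unchanged genes were called. The changed genes were drawn from the better expressed ones, so the simulation did not cover low genes or the scaling of the libraries.

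The alternatives tried were a filter on mean FPKM (1 or more), another pseudocount (0.1), median-ratio and equal-sum scaling, no variance moderation, a mean-variance trend, a replicate block and leaving out each mouse. All 10 genes are named with their transcripts. Of each further list the 3 genes with the largest called difference are named, and a fixed set of 14 genes is named whatever its values, which shares genes with these. The genes, lists and tests were chosen with earlier results of these data known. Replicate numbers name separate mice, and no batch is given. Ero1a and Ero1b were counted under their older symbols, and Tnfrsf17 was not in the table. Sequences are from the RefSeq promoter table for GRCm38.p6, and proteins were not used here. The lncRNA table was not used here.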

Additional observations from a re-analysis of the deposited data

Results flagged for a closer look

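Control mouse 1 stood apart from the other 5 mice of its group for 2 genes, by Dixon's test on the gap to the nearest mouse as a share of the range. Hspa5 was at 1206 FPKM in control mouse 1, while the other control mice were between 682 and 829 FPKM. Herpud1 was at 281 FPKM in the same mouse, while the others were between 142 and 194 FPKM. The test was run on 20 groups, the 10 genes in either group, and chance flags about 1 in 20. Without control mouse 1 the difference was -1.23 for Hspa5 (adjusted p = 0.000166, limma) and -0.84 for Herpud1 (adjusted p = 0.000243, limma), and all 10 genes were still called lower.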

How the results depend on the processing

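The 10 genes were called lower under each alternative except median-ratio scaling, which left 8. Of 190 differences of single members under an alternative, 188 kept their direction and their side of the threshold, and 2 no longer passed, Calr and Pdia6 after median-ratio scaling. That scaling also gave 5 genes without overlap, and 2793 genes lower and 2737 higher in place of 4560 and 1798. It gave a log2 difference of 0.091 in place of -0.094 for P4hb, and 11 in place of 7 correlations with Hspa5 that passed for r. The cause was not tested. Of 418 differences of the 22 other named genes, 406 kept direction and side, 9 no longer passed, 2 now passed and 1 reversed. When 1 mouse was left out, the members called stayed at 10, those without overlap were 8 to 9, the called member transcripts 13 to 15, and all called genes 5597 to 6437, of which 3989 to 4624 were lower and 1529 to 1891 higher. The difference in the share of Xbp1-201 then ran from -0.24 to 1.11 percentage points, below 0 without PZH mouse 1 or 5. Mice with the same number in both groups did not deviate together (correlations -0.083 to 0.093, and 0 of 6 mice correlated best with their own number). With the replicate number as a block, 10 members, 14 member transcripts and 5982 genes were called. The depth of the libraries was not known, and low values, such as those of Derl3 and Dnajb9-202, are less certain than those of the 10.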
